A study of Rattus norvegicus with 4 samples.

Results

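The prostaglandin genes described here are Ptgs1, Ptgs2, Ptges, Ptges2, Ptges3, Ptgis, Hpgd and Ptgr1, 8 genes chosen by name to follow the synthesis and breakdown of prostaglandins. Of these, 6 were measured among 7235 named genes. Ptgs1 and Ptgis were not among the named features and were not analysed here. The set was built around Ptges because its difference between the groups was already known from these arrays, and the other genes were added as steps of the same pathway. The values of the 6 genes between the groups are therefore given as a description, without a test.

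Prostaglandins are lipid signals made from arachidonic acid, which phospholipases free from membranes. A cyclooxygenase converts it to prostaglandin H2, and terminal synthases turn this unstable product into prostaglandin E2, prostacyclin and others. Uptake into the cell and oxidation by 15-hydroxyprostaglandin dehydrogenase end the signal. In tendon, prostaglandin E2 is known as a product of cultured tendon cells under repeated stretch and is linked to pain and inflammation of the tissue.

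RNA of rat tendon stem/progenitor cells (rTSPCs) was profiled on 4 Affymetrix arrays in 2 groups of 2. The group named 18M + POG received prim-O-glucosylcimifugin (POG), a chromone of Saposhnikovia root, at 20 μM, and the group named 18M + DMSO received the solvent dimethyl sulfoxide alone. Sample titles give rats of 18 months as the source of both groups, while the treatment entries give treatment up to passage 12. The study's methods use that passage for a separate series with cells of young rats and describe a short repeated exposure for cells of aged rats, so the age of the source and the length of treatment are not settled here, and the group names follow the titles. The study's methods describe cells from digested Achilles tendons that were grown out of colonies picked after sparse seeding, so each culture holds the progeny of selected cells. The arrays are called biological replicates, but no label says whether each came from another rat. Errors and p-values therefore measure the spread between arrays, which may be technical. Each gene's own spread is combined in them with the spread of all named genes. Sample titles of the DMSO arrays name both agents, and the groups follow the treatment entries.

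The array medians were between 8.55 and 8.68 log2 units. The 2 arrays of a group correlated at 0.994 for 18M + POG and 0.995 for 18M + DMSO, and arrays of different groups at 0.962 to 0.965. Of 14 tendon markers 10 were measured, and 3 of these passed as higher and 2 as lower in 18M + POG. The shares over all named genes were 20.4% higher and 17.2% lower. Lum, which encodes the matrix proteoglycan lumican, had a difference of 2.78 and Dcn, which encodes decorin, one of 1.18, whereas Tnc, which encodes tenascin C, was at -1.63. The early tendon factor Scx was at 5.86 and 5.48 in 18M + POG, against 5.93 and 6.09 in 18M + DMSO, and the late marker Tnmd was not among the named features. All 5 mesenchymal stem cell markers were measured, with Nt5e at 0.97, Eng at 0.67 and Cd44 at -0.81, each past the threshold. Thy1 (0.295) and Itgb1 (0.055), the brightest of the list, did not pass. Nt5e was dim, at 5.67 and 5.69 in 18M + POG, against 4.71 and 4.71 in 18M + DMSO. Eng did not pass without any 1 array (0.50 to 0.83), and Cd44 passed only without DMSO replicate 2 (-0.89), with -0.87 without POG replicate 1, -0.76 without POG replicate 2 and -0.74 without DMSO replicate 1. In the list of leukocyte and macrophage markers, Cybb, of the phagocyte oxidase, and Cd34, a marker of haematopoietic progenitors that other cells also carry, passed as higher, at 0.90 and 0.63, but did not pass without any 1 array (0.44 to 1.35 and 0.41 to 0.86), while Cd14 (0.10) and the macrophage marker Cd68 (-0.01) did not pass. The mean signal over these 4 genes was 6.51 and 6.73 in 18M + POG, against 6.19 and 6.24 in 18M + DMSO.

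Among the 6 measured genes, the inducible enzymes of prostaglandin E2 synthesis had lower signals in 18M + POG than in 18M + DMSO, and the enzyme that opens prostaglandin breakdown had a higher one. Against the call rule used for the other genes, an adjusted p under 0.05 in a limma fit over all named genes, Ptges, Ptgs2 and Ptgr1 lay on the lower side and Hpgd on the higher side; since the set was drawn up with this contrast known, the count is descriptive and no test of these genes. In that fit 37.6% of all 7235 named genes passed, 20.4% as higher and 17.2% as lower. The median difference of the 6 genes was -0.96 on the log2 scale, beside 0.04 over all named genes. In every one of the 6, the arrays of the 2 groups did not overlap, as was the case for 69.8% of all named genes. In RNA of whole cultures, fewer cells that express a gene and less RNA per cell cannot be told apart.

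**Figure D1:**
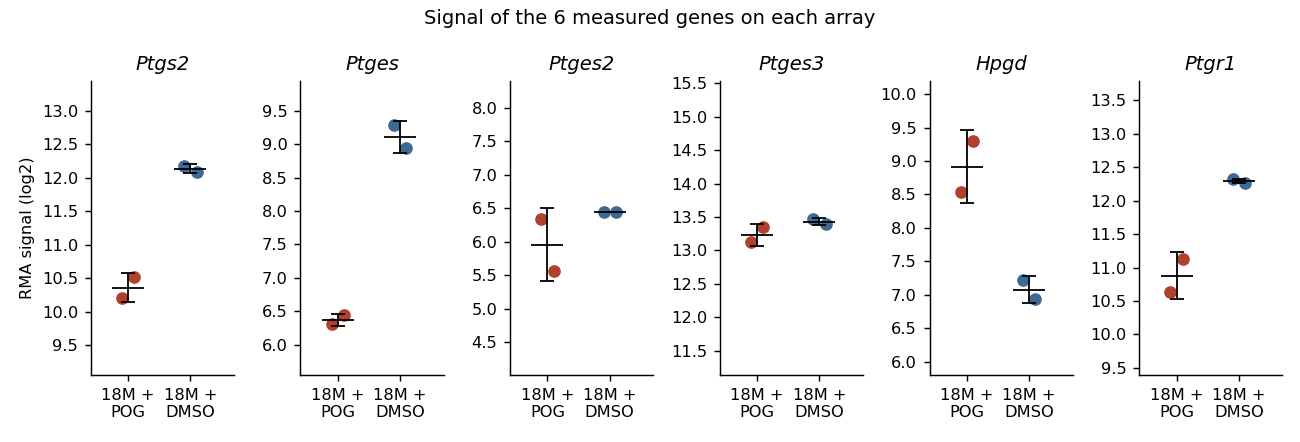
RMA signal (log2) of the 6 measured prostaglandin genes, 1 panel per gene, on the 2 arrays of 18M + POG (left, red points) and the 2 of 18M + DMSO (right, blue points); black bars give the mean and SD. Every panel spans the same number of log2 units, so the separation can be compared by eye; the difference is -2.74 for Ptges and -0.20 for Ptges3. Heights are not comparable between genes.

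Ptgs2 encodes cyclooxygenase-2, the inducible enzyme that commits arachidonic acid to prostaglandins. Its signal was 10.20 and 10.51 in 18M + POG, against 12.18 and 12.09 in 18M + DMSO (log2). Both POG arrays lay below both DMSO arrays. The means were 10.4 ± 0.22 in 18M + POG and 12.1 ± 0.06 in 18M + DMSO (SD, n = 2 each), a difference of -1.78 (95% interval -2.21 to -1.35), which is a 3.43-fold lower signal. With any 1 array left out, the difference was between -1.94 and -1.63.

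Ptges encodes microsomal prostaglandin E synthase-1, a glutathione-dependent enzyme of the membrane that works downstream of cyclooxygenase-2 and is induced with it by interleukin-1 in many cell types. It was measured at 6.31 and 6.44 in 18M + POG, against 9.28 and 8.94 in 18M + DMSO. Again both POG arrays were lower, and the gap between the groups was wider than the distance between the arrays of either group. The group means were 6.38 ± 0.09 for 18M + POG and 9.11 ± 0.24 for 18M + DMSO (SD, n = 2 each), and their difference of -2.74 (95% interval -3.17 to -2.30) is a 6.66-fold lower signal. This was the difference known when the set was drawn up; it stood 97th from the lowest among the 7235 named genes, where Ptgs2 stood 228th.

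Promoters are shown for Ptges, Ptgs2 and Hpgd, which were picked by their differences. They are given as in RefSeq on GRCr8, from 250 bases before the annotated start to 50 bases after it. Promoters were found for Ptgs1, Ptgs2, Ptges, Ptges3 and Hpgd, 5 of the 8 genes. Capitals mark matches, on either strand, to the letters of the TATA box (TATAAA), AP-1 (TGANTCA), the core of the cyclic AMP response element (TGACG), the GC box (GGGCGG), the E-box (CACGTG), C/EBP (TTNNGNAA), the antioxidant response element (TGACNNNGC), EGR (GCGNGGGCG) and the NF-κB consensus. No 2 matches overlapped in the sequences printed.
Ptges, chr3:34586938-34587237, minus strand: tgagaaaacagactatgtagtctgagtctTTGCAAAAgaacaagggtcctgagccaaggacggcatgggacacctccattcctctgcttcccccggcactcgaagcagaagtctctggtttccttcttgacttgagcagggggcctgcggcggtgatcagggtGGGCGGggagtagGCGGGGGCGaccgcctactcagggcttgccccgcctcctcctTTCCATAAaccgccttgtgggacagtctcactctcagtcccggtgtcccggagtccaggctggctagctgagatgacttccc
Ptgs2, chr13:64713813-64714112, plus strand: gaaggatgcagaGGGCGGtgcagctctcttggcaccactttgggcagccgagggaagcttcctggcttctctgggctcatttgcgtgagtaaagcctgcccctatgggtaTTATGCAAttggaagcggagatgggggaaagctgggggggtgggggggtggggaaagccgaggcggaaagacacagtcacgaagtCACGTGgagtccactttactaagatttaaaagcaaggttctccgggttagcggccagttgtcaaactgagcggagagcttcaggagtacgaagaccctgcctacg
Hpgd, chr16:39034782-39035081, minus strand: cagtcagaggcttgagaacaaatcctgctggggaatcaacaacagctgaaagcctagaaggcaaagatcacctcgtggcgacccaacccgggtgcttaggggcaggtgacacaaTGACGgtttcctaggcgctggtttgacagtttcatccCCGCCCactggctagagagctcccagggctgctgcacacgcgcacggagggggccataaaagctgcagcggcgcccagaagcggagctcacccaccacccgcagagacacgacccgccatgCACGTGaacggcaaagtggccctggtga
The Ptges sequence held 1 match to the EGR letters, GCGGGGGCG, beginning at position -74 from the annotated start, with 1 GC box at -87 and 2 C/EBP matches at -221 and -32. EGR letters stood in 4.98% of 33469 rat promoters of this length, GC boxes in 33.1% and C/EBP letters in 41.3%. The Ptgs2 sequence had 1 E-box at -55, found in 6.42% of promoters, 1 GC box at -238 and 1 C/EBP match at -140, and the Hpgd sequence 1 E-box at 23, 1 GC box at -99 and 1 core of the cyclic AMP response element at -136 (21.2% of promoters). None of the 3 held the AP-1 letters (7.33% of promoters), the NF-κB consensus (4.18%) or the TATA letters searched (14.2%). Of the sequences not printed, that of Ptges3 (difference -0.20) held GC boxes, antioxidant response elements and a core of the cyclic AMP response element. The Ptgs1 sequence held no match. Such matches describe the letters of these windows and no binding, and a link to the signals was not tested.

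Ptges2 and Ptges3 encode the other enzymes named as prostaglandin E synthases, which are made in most cells and are unrelated to Ptges in structure. Ptges2, a membrane-associated synthase, was at 6.34 and 5.57 in 18M + POG, against 6.45 and 6.45 in 18M + DMSO. One POG array was close to the DMSO arrays and the other was lower. The means were 5.96 ± 0.54 in 18M + POG and 6.45 ± 0.00 in 18M + DMSO (SD, n = 2 each), and the difference of -0.50 (95% interval -1.01 to 0.02) became -0.11 without POG replicate 2 and -0.88 without POG replicate 1, so that 1 array decided its size. Ptges3, which is also the HSP90 co-chaperone p23, had 13.12 and 13.35 in 18M + POG, against 13.47 and 13.39 in 18M + DMSO. All 4 of its arrays lay close together, and the difference of -0.20 (95% interval -0.62 to 0.23) was smaller than the distance between its POG arrays.

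Hpgd encodes 15-hydroxyprostaglandin dehydrogenase, which oxidizes prostaglandin E2 to its inactive 15-keto form. It was measured at 8.53 and 9.30 in 18M + POG, against 7.22 and 6.93 in 18M + DMSO. Both POG arrays were higher, although they differed from each other more than those of Ptges, Ptgs2 and Ptgr1 did. With means of 8.92 ± 0.54 in 18M + POG and 7.08 ± 0.21 in 18M + DMSO (SD, n = 2 each), the difference was 1.84 (95% interval 1.31 to 2.37), a 3.58-fold higher signal and 89th from the highest of the named genes. It ranged from 1.46 without POG replicate 2 to 2.23 without POG replicate 1. Ptgr1 encodes prostaglandin reductase 1, which acts on the 15-keto products and also inactivates leukotriene B4. Its signal was 10.63 and 11.13 in 18M + POG, against 12.32 and 12.27 in 18M + DMSO, so that the next enzyme of breakdown was on the lower side. The means were 10.9 ± 0.35 in 18M + POG and 12.3 ± 0.04 in 18M + DMSO (SD, n = 2 each), with a difference of -1.42 (95% interval -1.87 to -0.96), a 2.67-fold lower signal.

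**Figure D2:**
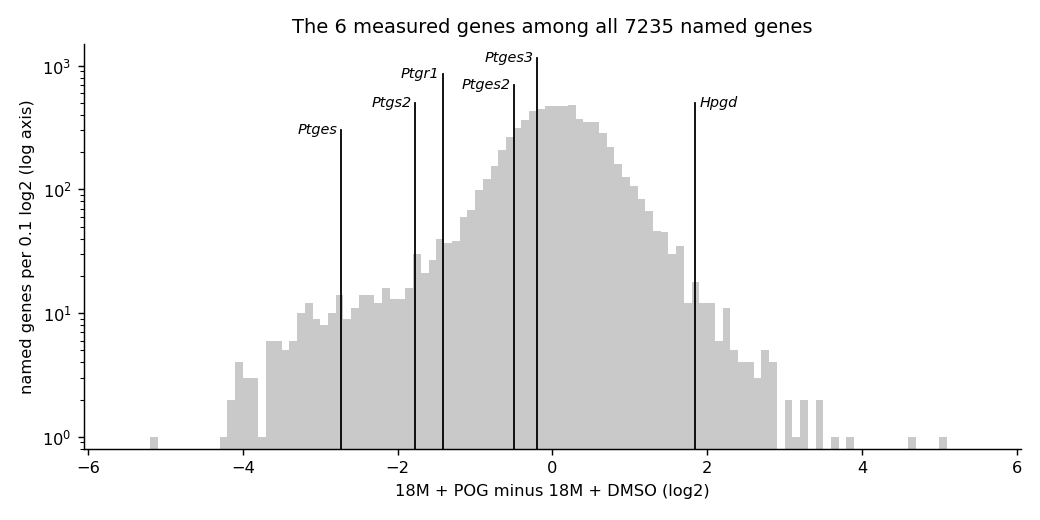
Differences of all 7235 named genes between 18M + POG and 18M + DMSO (log2; bins of 0.1, counts on a log axis), with black lines at the 6 measured prostaglandin genes. Ptges, at -2.74, lies in the lower tail, Ptges2 and Ptges3 lie within the bulk, and Hpgd, at 1.84, lies in the upper tail.

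By the Euclidean distance between mean-centred log2 signals over the 4 arrays, the named genes with a pattern most like Ptges were Dhrs9 (0.128), Espl1 (0.177), Rexo5 (0.181), Tuba4a (0.182) and Flt4 (0.185). Dhrs9, which encodes a short-chain dehydrogenase of retinoids, was at 5.86 and 5.91 in 18M + POG, against 8.82 and 8.59 in 18M + DMSO. Espl1 encodes separase, the protease that parts sister chromatids, and had 5.69 and 5.69 in 18M + POG, against 8.41 and 8.18 in 18M + DMSO. Flt4, which encodes a receptor of lymphatic growth factors, had a difference of -2.68. With 4 arrays, likeness rests mostly on the size of the difference between groups and on which DMSO array was higher.

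**Figure D3:**
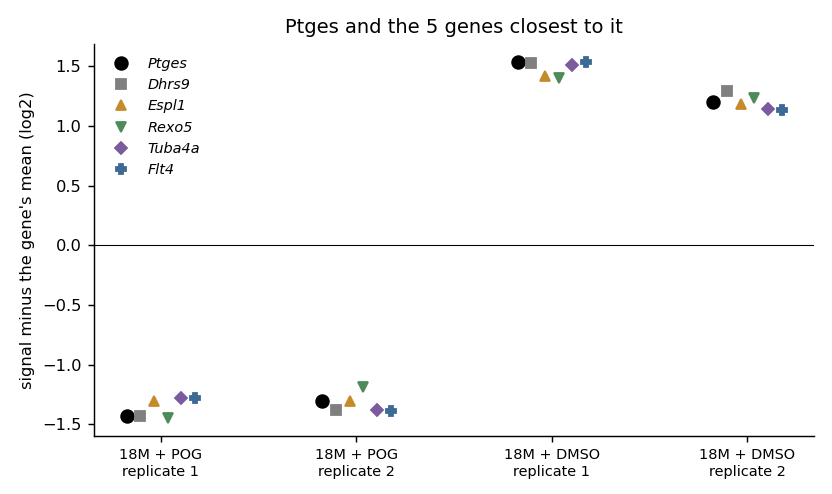
Signal minus the gene's own mean (log2) of Ptges (black circles) and the 5 genes closest to it, on the 2 arrays of 18M + POG (left) and the 2 of 18M + DMSO (right). In all 6 genes replicate 1 of 18M + DMSO is the highest array.

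The steps around these genes were followed with 4 lists that hold none of the 8. They cover arachidonate release and supply, other prostanoid synthases with related reductases, transport and further breakdown, and receptors. Of 72 genes listed, 31 were measured, and in 18M + POG 15 of them passed as higher and 4 as lower, leaving 12 that did not pass, with a median difference of 0.40. The shares over all named genes were 20.4% higher and 17.2% lower, with a median of 0.04. The lists, too, were chosen with earlier results of these data known, so their counts are a description and no test of the pathway. Of the 19 calls, 6 held without each array in turn, 5 were lost without some arrays and 8 were lost whichever array was left out, which also lowers the number of arrays fitted to 3.

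Of 15 measured genes of arachidonate release and supply, 9 were higher and 0 were lower at the threshold (1 was lower at an unadjusted p under 0.05 from limma). The delta-5 desaturase Fads1 and the delta-6 desaturase Fads2, which take part in making arachidonic acid from linoleic acid, led the list. Fads1 was at 15.71 and 15.71 in 18M + POG, against 14.10 and 14.28 in 18M + DMSO (difference 1.52, standard error 0.19, adjusted p = 3.0e-05 from limma). Fads2 was at 13.91 and 13.61 in 18M + POG, against 12.42 and 12.35 in 18M + DMSO (difference 1.38, standard error 0.20, adjusted p = 9.6e-05). Both desaturases are also known targets of the sterol factor SREBP. Pla2g7, which encodes a phospholipase that degrades platelet-activating factor, was at 12.01 and 12.30 in 18M + POG, against 10.79 and 10.98 in 18M + DMSO (difference 1.27, standard error 0.20, adjusted p = 0.00022 from limma). Lpcat3, which encodes an enzyme that puts arachidonate back into phospholipids, differed by 1.03 (adjusted p = 0.0011). These 4 calls held without each array, with adjusted p up to 0.0459.

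The remaining 5 higher genes of the list were less firm. Mgll, the monoacylglycerol lipase that can supply arachidonate, had 8.79 and 8.42 in 18M + POG, against 7.36 and 7.63 in 18M + DMSO (difference 1.11, adjusted p = 0.00090 from limma), and lost its call without POG replicate 1 (0.93) and without DMSO replicate 1 (0.98). Plaat3, a phospholipase of fat tissue, differed by 1.07 (adjusted p = 0.0015), and by 0.98 without POG replicate 1, 1.16 without POG replicate 2 and 0.81 without DMSO replicate 1, where it did not pass. Abhd12, Plaat1 and Pla2g6 differed by 0.65, 0.62 and 0.61 and lost their calls without any 1 array, with differences between 0.49 and 0.80. Pla2g4a, the cytosolic phospholipase A2 that acts ahead of the cyclooxygenases, was at 10.17 and 10.39 in 18M + POG, against 10.07 and 10.68 in 18M + DMSO, so the groups overlapped (difference -0.10, 95% interval -0.58 to 0.39). The secreted phospholipase gene Pla2g2a had signals of 3.36 and 3.48 in 18M + POG, against 3.72 and 4.18 in 18M + DMSO, near the lowest of the arrays (3.08 to 3.15). Anxa1, which encodes annexin A1, an inhibitor of phospholipase A2, differed by 0.17 (95% interval -0.26 to 0.59).

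The list of other prostanoid synthases and related reductases had 5 measured genes. Of these, 2 were lower and 0 were higher (also 0 at an unadjusted p under 0.05 from limma). Akr1b8, an aldo-keto reductase, was at 12.07 and 12.20 in 18M + POG, against 14.37 and 13.92 in 18M + DMSO (difference -2.01, standard error 0.21, adjusted p = 4.2e-06 from limma), and passed without each array. Akr1b1, the aldose reductase that can also make prostaglandin F2α, had 14.69 and 14.52 in 18M + POG, against 15.26 and 15.28 in 18M + DMSO (difference -0.67, adjusted p = 0.015), and lost its call without any 1 array (-0.75 to -0.58). Hpgds, the haematopoietic prostaglandin D synthase, was dim in both groups, with 4.59 and 4.42 in 18M + POG, against 4.64 and 4.53 in 18M + DMSO. The carbonyl reductases Cbr1 and Cbr3 differed by 0.03 and 0.27 and did not pass.

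Among 6 measured genes of transport and further breakdown, 3 were higher and 1 was lower. Slco2a1 encodes the prostaglandin transporter, which carries prostaglandins into cells where Hpgd acts on them. It was at 10.23 and 9.55 in 18M + POG, against 7.39 and 8.15 in 18M + DMSO (difference 2.12, standard error 0.27, adjusted p = 3.0e-05 from limma). Both POG arrays were higher, although the arrays within each group lay far apart. The difference was between 1.74 without DMSO replicate 1 and 2.50 without DMSO replicate 2, and passed with each array left out, but Slco2a1 did not pass the test of the study's methods even without adjustment. Abcc4, which exports prostaglandin E2, had 9.27 and 9.34 in 18M + POG, against 8.27 and 8.64 in 18M + DMSO (difference 0.85, adjusted p = 0.0049), and did not pass without POG replicate 1 (0.89), without POG replicate 2 (0.82) and without DMSO replicate 1 (0.67). Ptgr2, a second reductase of 15-keto prostaglandins, had a difference of 0.67 (adjusted p = 0.015), on the other side from Ptgr1. Slco3a1, another organic anion transporter, was at -0.71 (adjusted p = 0.013). The last 2 lost their calls without any 1 array, with differences of 0.62 to 0.71 for Ptgr2 and -0.84 to -0.58 for Slco3a1.

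Of 5 measured genes in the receptor list, 3 passed as higher and 1 as lower. Ptger4 encodes EP4, a receptor of prostaglandin E2 that raises cyclic AMP. It was at 7.21 and 6.83 in 18M + POG, against 6.14 and 5.36 in 18M + DMSO (difference 1.27, standard error 0.25, adjusted p = 0.0013 from limma). The groups did not overlap, but the call was lost without POG replicate 1 (1.08), without POG replicate 2 (1.46) and without DMSO replicate 2 (0.88). Ptgfr encodes FP, the receptor of prostaglandin F2α, and had 7.91 and 8.41 in 18M + POG, against 6.93 and 7.11 in 18M + DMSO (difference 1.14, standard error 0.22, adjusted p = 0.00090). It did not pass without POG replicate 2 (0.89) or without DMSO replicate 1 (1.05). The nuclear receptor genes Ppard and Pparg, whose products bind some prostaglandins or their derivatives, differed in opposite directions, at 0.75 (adjusted p = 0.0088) and -0.70 (adjusted p = 0.015), and both lost their calls without any 1 array (0.63 to 0.88 and -0.83 to -0.57). Ptgfrn, a partner that restrains FP, differed by 0.06 (95% interval -0.36 to 0.48). The receptors EP1, EP2, EP3, DP, IP and TP were not analysed here.

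**Figure D4:**
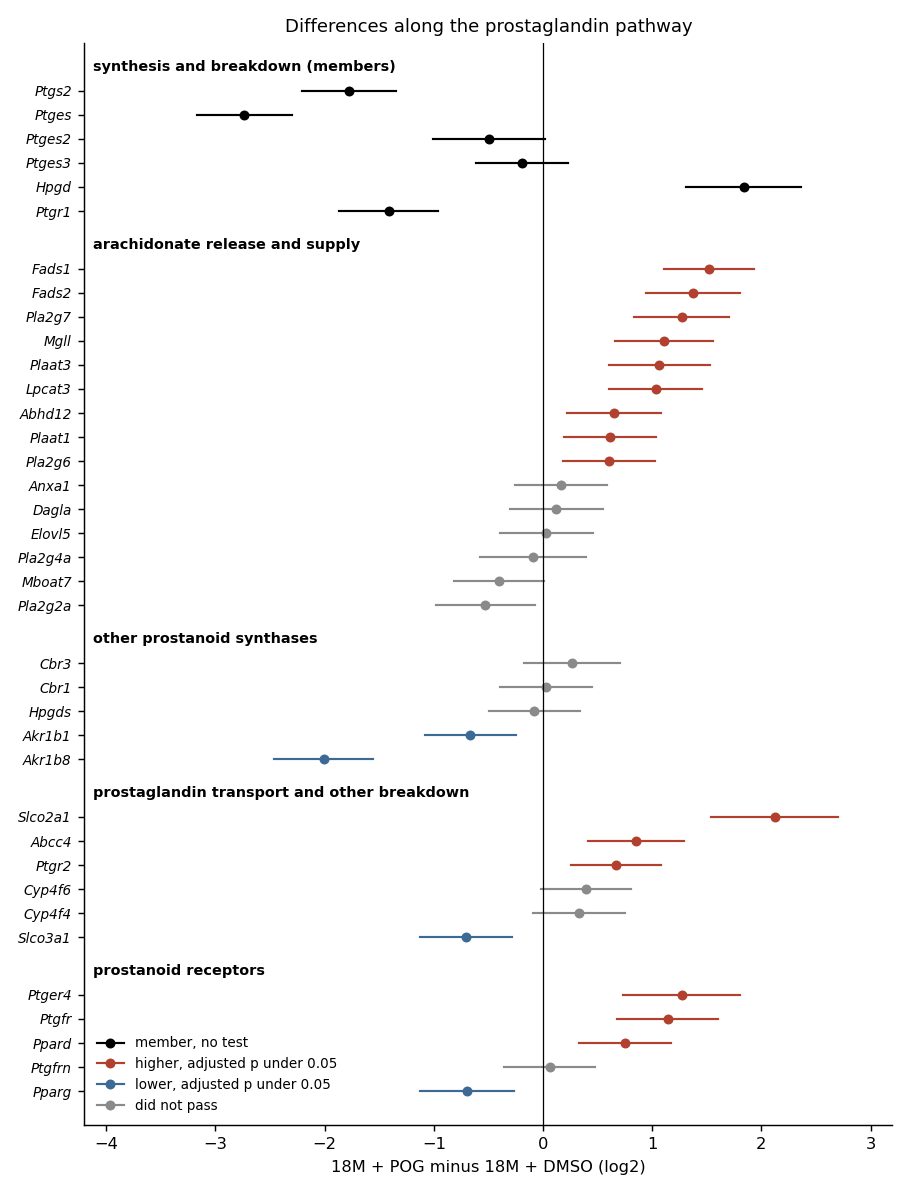
Differences between 18M + POG and 18M + DMSO (log2) for the 6 measured prostaglandin genes (black, no test) and the 31 measured genes of the surrounding steps; lines give 95% intervals from limma. Ptges at -2.74 and Akr1b8 at -2.01 lie farthest to the left, and Slco2a1 at 2.12 lies farthest to the right.

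Ptges belongs to the MAPEG family of glutathione-dependent membrane proteins, and its relatives and glutathione supply were followed next. Of 8 measured genes, 1 passed as higher and 3 as lower, beside 20.4% and 17.2% of all named genes. Mgst1, the microsomal glutathione transferase closest to Ptges in sequence, was at 11.56 and 11.68 in 18M + POG, against 9.28 and 9.46 in 18M + DMSO (difference 2.25, standard error 0.20, adjusted p = 6.3e-07 from limma). It was thus opposite in direction to Ptges in these arrays. Gclc, the catalytic subunit of the first enzyme of glutathione synthesis, was at 6.88 and 7.35 in 18M + POG, against 8.96 and 8.83 in 18M + DMSO (difference -1.78, standard error 0.21, adjusted p = 1.6e-05). Both calls held without each array. Gss and Gclm, of the same route, differed by -0.61 (adjusted p = 0.034) and -0.57 (adjusted p = 0.035), and lost their calls without any 1 array (-0.82 to -0.40 and -0.71 to -0.44).

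The leukotriene, lipoxygenase and epoxide branch uses the same arachidonic acid. Here 2 of 7 measured genes were higher and 0 were lower (also 0 at an unadjusted p under 0.05 from limma). Over all named genes the shares were 20.4% higher and 17.2% lower. Cyp2j4, a cytochrome P450 of the family that makes epoxides of arachidonic acid, was at 8.25 and 8.07 in 18M + POG, against 6.63 and 6.02 in 18M + DMSO (difference 1.84, standard error 0.23, adjusted p = 2.1e-05 from limma). Ephx1, the microsomal epoxide hydrolase, had a difference of 1.44 (adjusted p = 0.00047), which did not pass without POG replicate 1 (1.60) or without POG replicate 2 (1.29). The lipoxygenases were not among the named features.

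Around Ptges3, 17 genes were measured in a list of the HSP90 machine, the glucocorticoid receptor gene Nr3c1 and the glucocorticoid-induced gene Tsc22d3. Of these, 6 passed as lower and 1, Tsc22d3, as higher, with a median difference of -0.42. The shares over all named genes were 17.2% lower and 20.4% higher. Fkbp5, a co-chaperone of the glucocorticoid receptor, was at 6.36 and 6.64 in 18M + POG, against 7.63 and 7.83 in 18M + DMSO (difference -1.23, standard error 0.20, adjusted p = 0.00028 from limma). Tsc22d3, which encodes the leucine zipper protein GILZ, was at 8.25 and 8.74 in 18M + POG, against 6.24 and 6.51 in 18M + DMSO (difference 2.12, standard error 0.22, adjusted p = 3.5e-06). Both are known as genes induced by glucocorticoids, which also repress Ptgs2 and Ptges. Fkbp5 was lower and Tsc22d3 higher here, and the part of glucocorticoids in these values was not tested. Stip1, the HSP70-HSP90 organizing protein, differed by -1.07 (adjusted p = 0.0015) and Ppp5c, a phosphatase of these complexes, by -0.72 (adjusted p = 0.013). Ppp5c did not pass without any 1 array (-0.88 to -0.56), and Stip1 passed only without DMSO replicate 2 (-1.30), with -1.20 without POG replicate 1, -0.94 without POG replicate 2 and -0.83 without DMSO replicate 1. The receptor gene Nr3c1 itself differed by 0.16 (95% interval -0.30 to 0.61).

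Of 38 measured genes that induce or regulate Ptges and Ptgs2, 10 passed as higher and 4 as lower, with a median difference of 0.17. Over all named genes, 20.4% passed as higher and 17.2% as lower, with a median of 0.04. Fosl1 was at 6.74 and 6.54 in 18M + POG, against 9.24 and 8.70 in 18M + DMSO (difference -2.33, standard error 0.22, adjusted p = 1.4e-06 from limma), and Jun at 9.75 and 9.51 in 18M + POG, against 10.91 and 11.11 in 18M + DMSO (difference -1.38, standard error 0.20, adjusted p = 9.5e-05). Map2k3, a kinase that activates p38, was also lower, with 9.31 and 9.25 in 18M + POG, against 10.54 and 10.24 in 18M + DMSO (difference -1.11, adjusted p = 0.00060). The calls of these 3 genes held without each array. Of the other AP-1 genes in the list, Fos (0.18) and Fosb (-0.13) did not pass, and Jund (1.08), Fosl2 (0.98) and Junb (0.95) passed as higher. Jund did not pass without POG replicate 1 (0.78), POG replicate 2 (1.39) or DMSO replicate 2 (0.77). Fosl2 did not pass without POG replicate 1 (0.81), POG replicate 2 (1.15) or DMSO replicate 1 (0.70), and Junb without POG replicate 2 (0.83) or DMSO replicate 1 (0.87). Il1rn, which encodes the antagonist of the interleukin-1 receptor, at 0.98, and Hif1a, which encodes a hypoxia factor, at 0.94, were higher and passed without each array. Cebpd, a C/EBP factor, was at 8.19 and 8.35 in 18M + POG, against 7.34 and 6.90 in 18M + DMSO (difference 1.15, adjusted p = 0.00069), and did not pass without POG replicate 2 (1.07). Egr1, an immediate early gene of the EGR family that is known as an inducer of Ptges in other cells, had 15.08 and 14.87 in 18M + POG, against 15.20 and 15.23 in 18M + DMSO, and its difference of -0.24 (95% interval -0.66 to 0.18) did not pass. Neither did the NF-κB subunit genes Nfkb1, Nfkb2 and Rela, at 0.38, 0.33 and 0.43. Il1b and Tnf, whose products induce both enzymes, were not among the named features.

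**Figure D5:**
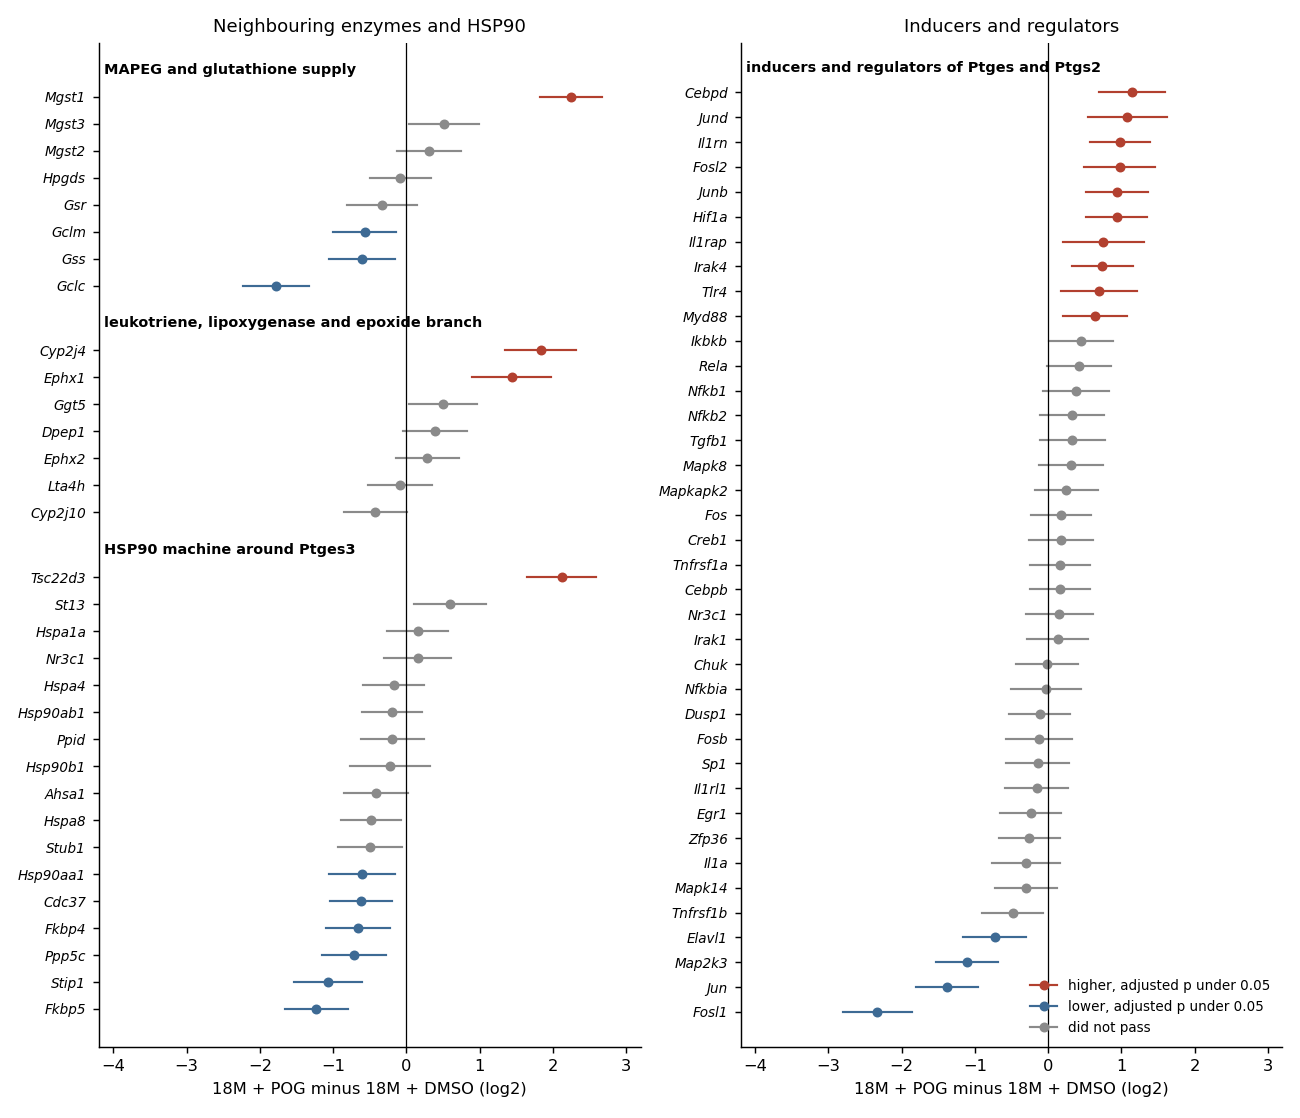
Differences between 18M + POG and 18M + DMSO (log2, with 95% intervals from limma) for MAPEG and glutathione genes, the epoxide branch and HSP90 genes (left) and for inducers and regulators of Ptges and Ptgs2 (right). Red and blue mark genes past an adjusted p of 0.05 on the higher and the lower side; Mgst1 at 2.25 and Fosl1 at -2.33 lie farthest from 0.

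All 11 measured cell division markers were lower in 18M + POG, with Plk1 at -4.27, Mki67 at -4.13 and Tk1 at -4.08, and their mean signal was 8.89 and 9.19 in the arrays of 18M + POG, against 12.6 and 12.6 in those of 18M + DMSO. By protein staining, the study reports more Ki67, the product of Mki67, after POG. It does so for cells of aged rats and for cells at passage 12, and reports more colonies after POG in both. The RNA values here go the other way, and the reason was not tested. The 7 measured pericyte and smooth muscle markers were mixed, with 4 higher, 1 lower and 2 not passing (all named genes: 20.4% higher, 17.2% lower). On the higher side were Myh11 at 3.14, Mcam at 1.30 (not passing without POG replicate 1, at 1.34, or POG replicate 2, at 1.25) and Pdgfrb at 1.28. Cspg4 was lower, at -0.84, but passed only without DMSO replicate 2 (-1.07), with -0.88 without POG replicate 1, -0.81 without POG replicate 2 and -0.62 without DMSO replicate 1. The contractile genes Acta2, at 0.07, and Tagln, at -0.21, did not pass. The mean signal of the list was 13.3 and 13.1 in 18M + POG, against 12.5 and 12.4 in 18M + DMSO. No defining marker can be said to be absent, since the tables hold no detection values. The part of either list in the prostaglandin values was not tested. For endothelial cells only Kdr was measured, at 5.50 and 5.94 in 18M + POG, against 5.73 and 5.82 in 18M + DMSO.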

How the data were processed

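The authors hybridized labelled cDNA to Affymetrix Rat Transcriptome Arrays and deposited log2 signals from robust multichip analysis (RMA) with default settings and global scaling, in a table with a column for each array. No source used here states the RMA software's version. Another deposited table of log2 values was identical to it in 10141 of 10141 features. Symbols came from the platform annotation, which names 7240 features (7235 genes) and leaves 2901 without a name here. The feature with the highest mean stood for a gene. Dim signals were kept.

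The groups were compared in R 4.3.3 with limma 3.58.1 (lmFit, eBayes; group as the only term). P-values were adjusted by the Benjamini-Hochberg method across the 7235 genes, and genes under 0.05 were called. Differences are 18M + POG minus 18M + DMSO. The number of arrays limits the precision, since an exact permutation test of 2 against 2 arrays gives no two-sided p under 0.333. The fit was tested on simulated data.

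The members and lists were chosen with earlier results of these data known. Named were all members, the passing pathway genes, all measured receptors, the 4 largest passing changes of each related list, up to 3 genes of each marker list and the 5 genes closest to Ptges. A few others given beside them were chosen after their values were seen. The alternatives were the other table, quantile normalization, subtraction of array medians, removal of the dimmest 25% of genes, features averaged per gene or tested singly, a replicate block, each array omitted in turn, a trended variance prior, a fold limit of 1.5, and the methods' t-test with and without adjustment. Unadjusted limma was added after the data were seen. Promoters came from RefSeq (GRCr8). Figures were drawn with matplotlib 3.10.9.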

Additional observations from a re-analysis of the deposited data

How the results depend on the processing

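The direction of Ptges, Ptgs2, Ptgr1 and Hpgd was the same under each alternative run, and so was that of the 19 called pathway genes. For most alternatives the direction could not have changed. The groups did not overlap in any of these genes, so leaving out 1 array could not reverse a sign. Of the runs with all arrays, only quantile normalization and subtraction of array medians altered their differences, and both kept the signs. The other runs changed only errors, p-values or the genes tested. With any 1 array left out, 523 to 660 of all named genes were higher and 592 to 619 were lower, against 1475 and 1248 with all arrays; of the pathway genes, 6 to 9 were higher (15 with all arrays) and 1 was lower (4 with all arrays). The lone array of a group was then assumed to vary like the others. By the methods' test, with its fold limit and without adjustment, 786 named genes were higher and 784 were lower, and 10 and 4 pathway genes; Plaat3, Abhd12, Slco2a1, Ptger4 and Ptgfr did not pass. After adjustment that test called 0 genes in each direction, over all named genes and in every list. For comparison, limma at an unadjusted p under 0.05 called 1853 higher and 1570 lower. Same-numbered arrays correlated at 0.145 in their deviations from the group means, and nothing says that the numbers pair the arrays; with the replicate number as a block, 1599 genes were higher and 1358 lower, and 15 and 5 pathway genes. Without the dimmest 25% of genes, Ptges2, Ptger4, Pparg, Ephx1 and the markers Nt5e, Cybb and Cd34 were not tested, nor were other dim genes. Detection values were not used here, so dim signals were not told from background. Ptges2 was at -0.11 without POG replicate 2.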
